A study of Mus musculus with 14 samples.

Results

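RNA polymerase I, II and III subunits were described as mRNA over the time course of mTOR inhibition (mTORi) in mouse ES cells. Members were chosen by gene name, taking every gene whose symbol begins with Polr1, Polr2 or Polr3 followed by a letter and leaving out 1 pseudogene name. This gave 28 of the 54446 genes in the files, of which 5 are named for Pol I, 13 for Pol II and 10 for Pol III. All 28 were among the 18232 genes tested. Bulk RNA-seq was available for 14 libraries of E14 cells, a mouse ES cell line grown in serum with LIF, with 2 replicates in each of 7 groups. The wild-type groups were untreated cells (0 h) and cells after 24, 72 and 144 h of INK128, an mTOR kinase inhibitor, at 200 nM. The *Tet1/2* DKO groups, in which both *Tet1* and *Tet2* were disrupted by genome editing of E14 cells, were untreated cells and cells after 24 and 72 h of the same treatment. The DKO line was grown from single sorted cells, so the effect of the deletions and that of a clonal line cannot be told apart. Neither genotype had an untreated group at a later time, so mTORi and time in culture cannot be told apart.

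The eukaryotic nuclear genome is transcribed by 3 RNA polymerases. Pol I makes the large ribosomal RNA precursor in the nucleolus, Pol II makes mRNA and many non-coding RNAs, and Pol III makes tRNA, 5S rRNA and other small RNAs. Each is built around a pair of large catalytic subunits, carries a stalk and peripheral subunits of its own, and shares a set of small subunits with the others. In growing cells mTOR signalling promotes transcription by Pol I and Pol III, and the Pol III repressor MAF1 is among its known targets. The subunit genes are themselves transcribed by Pol II, so the values below are mRNA levels of the subunits and not polymerase activity.

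The deposited values are TPM, a length-adjusted abundance that sums to 1000000 in every library. They do not show a change that all genes share, so each library was also multiplied by 1 spike-in factor (1 to 2.81 over the 14 libraries), and changes are given on this spike-in scaled TPM unless the deposited TPM is named. A change is a log2 fold change of TPM + 1 with its SE, tested in limma over all genes, and called at an adjusted p (Benjamini-Hochberg) below 0.05. With 2 replicates a group, the p-values measure the spread between these libraries, which may in part be technical. In bulk samples fewer cells of a type and less RNA per cell cannot be told apart. *Tet2* was lower in all 6 DKO libraries (15.9 to 22.2 deposited TPM) than in all 8 wild-type libraries (96.0 to 143). *Tet1* at gene level overlapped between the genotypes only when times were pooled (147 to 248 against 191 to 349). Time by time, its deposited TPM was lower in DKO without overlap. *Tet1* read 152 and 147 in DKO against 197 and 191 in wild type at 0 h. At 24 h these values were 195 and 176 against 274 and 255, and at 72 h 238 and 248 against 313 and 289. The paper reports that the knockout clones were screened by PCR and checked by western blot for TET1 and TET2. The 4 ES cell markers *Pou5f1*, *Sox2*, *Nanog* and *Zfp42* summed to 1818 to 2283 deposited TPM in every library. Within that sum *Nanog* was called lower and *Sox2* higher on the deposited TPM in wild type at 72 h (−0.87 and 0.36) and at 144 h (−0.61 and 0.64), *Sox2* was called higher at 24 h in both genotypes (0.56 in wild type and 0.37 in DKO), and *Nanog* lower in DKO at 72 h (−0.85). Their part in the results was not tested. The 8 markers of other lineages summed to 11.8 to 35.4 in 12 libraries and to 50.8 and 80.7 in the 2 wild-type 24 h libraries, and none of the 8 was at 0 in any library. On the deposited TPM the count of the 8 called higher was 3, 1 and 1 in wild type (24, 72 and 144 h) and 0 and 2 in DKO (24 and 72 h), with 0 called lower in these comparisons.

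In untreated wild-type cells the subunit mRNAs spanned a wide range. On the deposited scale the lowest mean was that of *Polr3gl*, a Pol III subunit, at 5.91 ± 2.15 TPM (SD, n = 2), and the highest that of *Polr2e*, a small subunit that all 3 polymerases contain, at 228 ± 12.0. The 13 Pol II genes summed to 1442 and 1354 deposited TPM in the 2 libraries, the 5 Pol I genes to 426 and 449, and the 10 Pol III genes to 298 and 315. Of the summed subunit TPM, Pol II genes held 65.3% ± 1.85, Pol I genes 20.4% ± 1.07 and Pol III genes 14.3% ± 0.779 (SD, n = 2). These shares do not depend on the spike-in factor. Genes were grouped by name, so the Pol II group holds the 5 subunits that all 3 polymerases share, and *Polr2m*, a Pol II-associated factor. The shares are thus not those of separate enzymes. At 144 h of mTORi the Pol II share was 61.7% ± 0.421 and the Pol III share 17.0% ± 0.522, and the 2 libraries of each group did not overlap for either share. For the Pol I share, 21.3% ± 0.101, both libraries also lay above the untreated ones (19.7% and 21.2%), while the difference in means was less than the SD of the untreated libraries. The Pol I share was 22.1% and 23.7% at 24 h, again above both untreated values, and 20.2% and 21.4% at 72 h, which overlapped them. From 0 to 144 h in wild type the mean Pol III sum went from 307 to 334 deposited TPM, and *Polr3gl* alone from 5.91 to 26.3. In DKO the Pol II share was 64.4% and 66.9% untreated and 61.2% and 64.5% at 24 h, which overlapped. The Pol III share there was 15.7% and 14.2% untreated and 17.0% and 15.1% at 24 h, which overlapped too. At 72 h in DKO the Pol II share was 62.9% and 64.1%, and the Pol III share 17.3% and 16.7%.

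**Figure D1:**
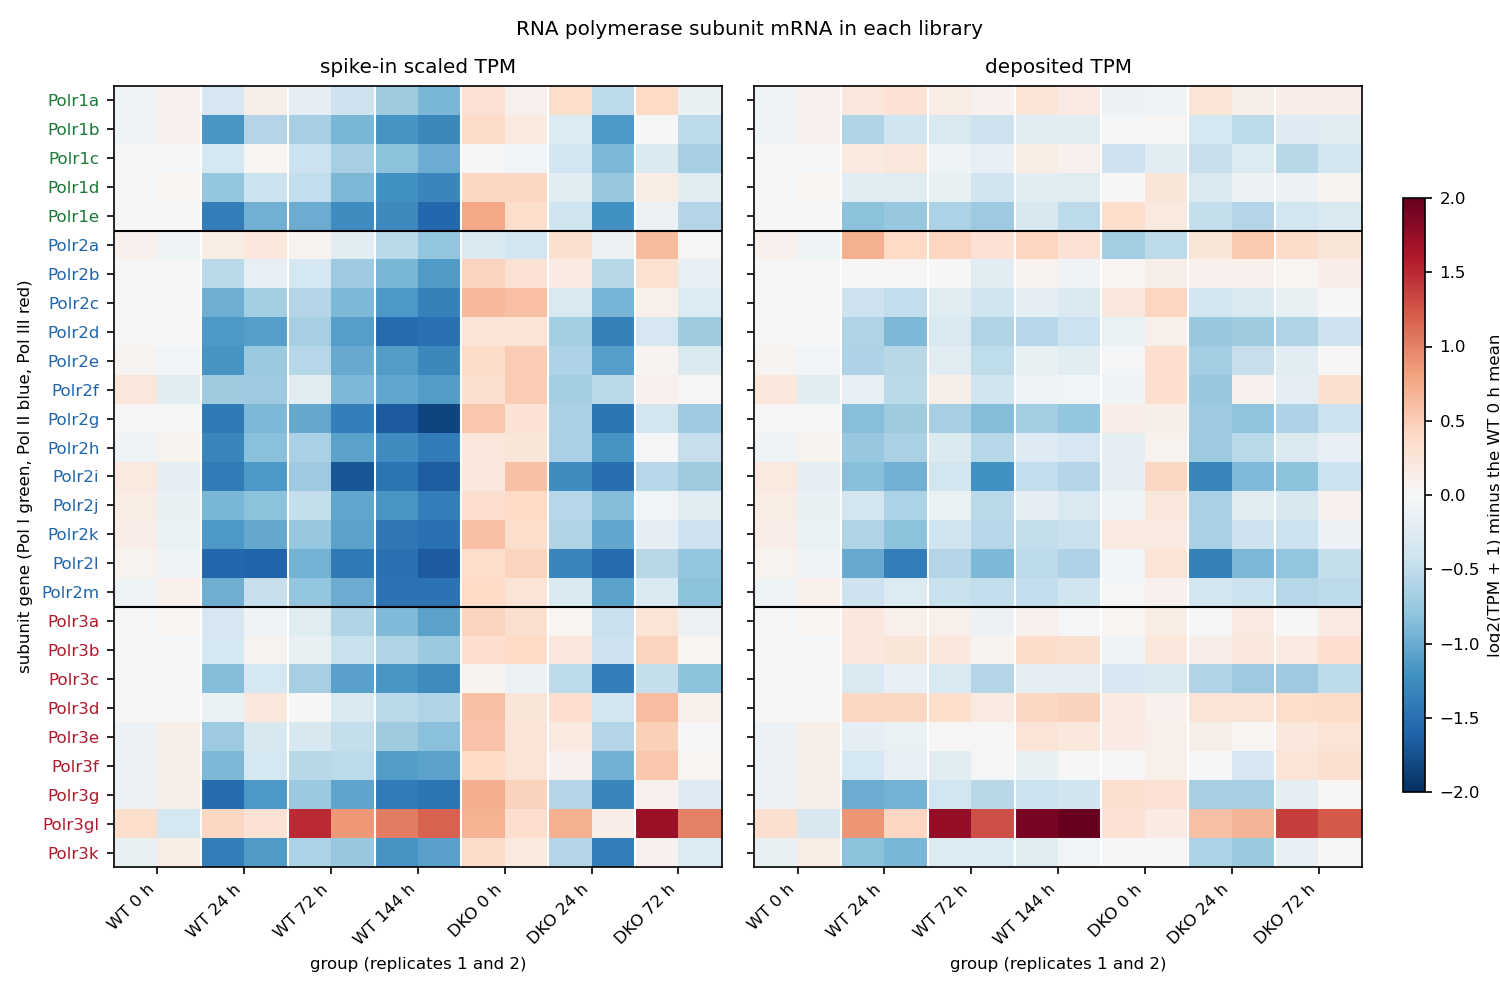
Each row is 1 of 27 subunit genes and each column 1 of the 14 libraries, coloured by log2(TPM + 1) minus the mean of the 2 untreated wild-type libraries, for spike-in scaled TPM (left) and deposited TPM (right). On the left the 2 wild-type 144 h columns are blue in 26 of 27 rows, whereas on the right both blue and red rows are seen, and Polr3gl is red at 72 and 144 h on both sides.

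After 144 h of mTORi the subunit mRNAs were lower in wild-type cells almost throughout. The fit called 25 of 28 lower (89.3%) and 1 higher, against 50.5% of all genes tested called lower and 0.461% called higher. The median change of the 28 was −1.21, against −0.83 over all 18232 genes, and 22 of the 28 lay below the all-gene median. All 13 Pol II genes and all 5 Pol I genes fell, as did 7 of 10 Pol III genes. The 2 members that passed the test in neither direction without a replicate block were *Polr3b*, the second largest Pol III subunit, at −0.67 ± 0.28 (adjusted p = 0.053), and *Polr3d*, which forms a dimer with the *Polr3e* product on Pol III, at −0.57 ± 0.30 (adjusted p = 0.11). With the block within each genotype both were called lower (adjusted p = 0.0132 and 0.0234), and the counts were 27 lower and 1 higher, against 66.3% and 1.05% of all genes. The tested genes include many at lower levels than these 28, and this was not allowed for in reading the shares. Without replicate 2 at 0 h, and also without replicate 2 at 144 h, 16 members were called, all lower, and the share of all genes called lower was 23.9% and 21.5%, beside 50.5% with all libraries. Of the 26 calls, 15 were kept whichever of the 14 libraries was left out (*Polr1b*, *Polr1d*, *Polr1e*, *Polr2c*, *Polr2d*, *Polr2e*, *Polr2g* to *Polr2m*, *Polr3c* and *Polr3g*), and 11 were lost without at least 1 library.

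The sign of the change depended on the scale for several members, in part at values near 0. On the deposited TPM, which compares each mRNA with the total of its own library, 6 members were lower at 144 h (21.4%) and 3 were higher, against 11.7% and 15.6% of all genes. The median of the members was −0.19 on that scale, against 0.05 over all genes, and 21 of the 28 lay below the all-gene median. The members that were lower on both scales were *Polr1e*, *Polr2d*, *Polr2g*, *Polr2k*, *Polr2m* and *Polr3g*. *Polr3gl* was higher on both. *Polr3b* and *Polr3d*, which were lower on the spike-in scale with the replicate block and not called without it, were higher on the deposited one, by 0.35 (adjusted p = 0.0331) and 0.44 (adjusted p = 0.00329).

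A group of members was already lower at 24 h. At that time 11 of 28 members were called lower (39.3%) and 0 higher, against 8.73% and 1.25% of all genes, with a median of −0.75 against −0.33. These were *Polr1e*, the Pol II genes *Polr2d*, *Polr2g*, *Polr2i* and *Polr2j*, 4 of the 5 subunits that all 3 polymerases share (*Polr2e*, *Polr2h*, *Polr2k* and *Polr2l*), and the Pol III genes *Polr3g* and *Polr3k*. With a replicate block within each genotype 18 were lower (64.3%) and 0 higher, against 25.7% and 4.48% of all genes. The deposited TPM gave 14 lower and 3 higher, against 14.1% and 15.8%. The 3 that were higher on that scale were *Polr1a*, *Polr2a* and *Polr3d*, at 0.26, 0.55 and 0.41. The lineage markers *Gata4*, *Gata6* and *Sox17* were called higher in the same libraries, and their part in the result was not tested. The count was 2 without either of the 0 h libraries, with 3.12% and 1.58% of all genes called lower, and 1 without replicate 1 at 24 h, with 1.46% of all genes called lower.

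At 72 h 4 wild-type members were called lower (14.3%) and 1 higher, against 7.6% and 0.697% of all genes. Those lower were *Polr1e* (−1.11), *Polr2g* (−1.20), *Polr2i* (−1.22) and *Polr2l* (−1.18), and *Polr3gl* rose by 1.19 (adjusted p = 0.0429). The median change, −0.72, was close to that at 24 h. The replicate block gave 16 lower (57.1%) and 1 higher, against 25.4% and 2.85% of all genes, and the deposited TPM gave 11 lower (39.3%) and 2 higher, against 11.4% and 12.6%. The count of 5 rested on single libraries. It was 0 without either 0 h library (2.5% and 0.965% of all genes called in either direction) or without replicate 2 at 72 h (0.367%), and 2 without replicate 1 at 72 h (2.54%). It was 3 without either 144 h library (5.36% and 5.37%) and 16 without either DKO 24 h library (18.8% for both), which enters through the pooled spread. The call of *Polr3gl* at 72 h was lost without any 1 of the wild-type 0 h, 72 h and 144 h libraries (adjusted p = 0.0626 to 0.392).

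**Figure D2:**
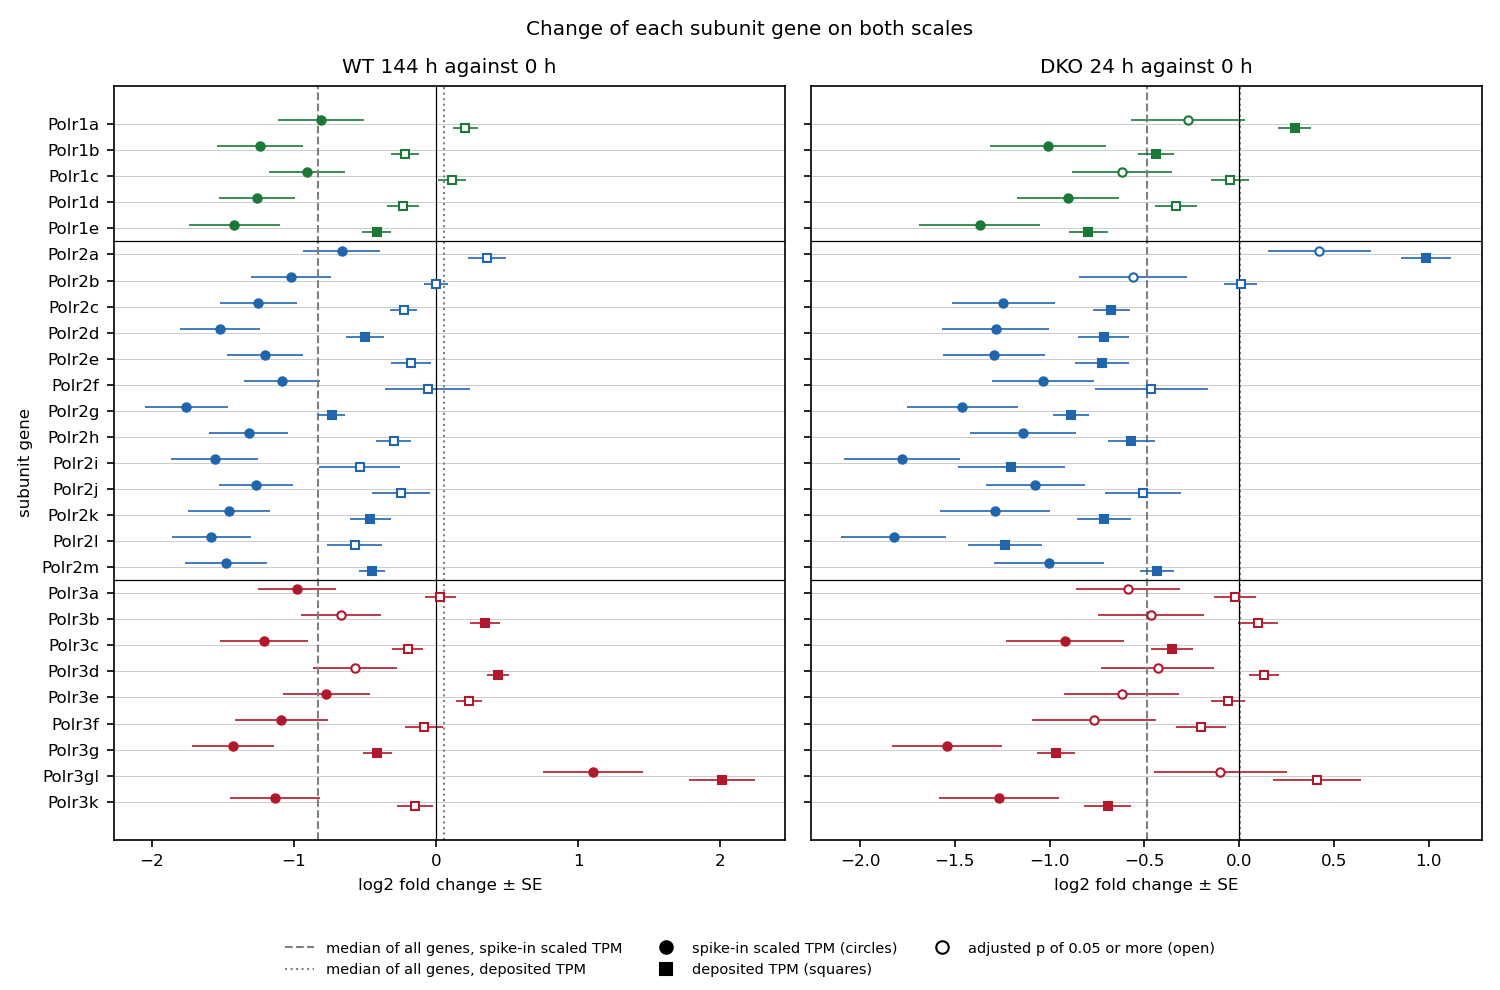
The log2 fold change (horizontal axis, ± SE) of 27 subunit genes (rows) is plotted for wild type at 144 h and for DKO at 24 h, against 0 h of the same genotype, on spike-in scaled TPM (circles) and deposited TPM (squares), with open symbols at an adjusted p of 0.05 or more. Vertical lines mark the median of all genes, −0.83 and 0.05 on the left and −0.49 and 0.01 on the right, and most members sit to the left of the line for their scale, with Polr2a and Polr3gl to the right of it.

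In the spike-in scaled values below, lying outside the untreated range is to be read against its share over all genes. At 24, 72 and 144 h in wild type, both treated libraries lay below both untreated ones for 47.8%, 55.3% and 82.1% of all genes. In DKO the share was 46.3% at 24 h and 30.1% at 72 h. For the 28 members the counts were 22, 25 and 27 in wild type, and 24 and 19 in DKO. Among the Pol I genes, *Polr1a* encodes the largest subunit. It read 126 and 141 spike-in scaled TPM in untreated wild-type libraries, 106 and 144 in the 24 h pair, 116 and 99.7 in the 72 h pair, and 81.1 and 70.6 in the 144 h pair. Its 24 h libraries overlapped those at 0 h, and those at 72 and 144 h lay below both. The fall at 144 h was −0.81 ± 0.30 (adjusted p = 0.0317), but on the deposited TPM the value was 0.21 (adjusted p = 0.101). The call was lost without any 1 of the 0 h and 144 h libraries (adjusted p = 0.0756 to 0.17). *Polr1b*, the second largest subunit, read 184 and 209 in untreated wild-type libraries, 87.3 and 130.3 in the 24 h pair, 124 and 103 in the 72 h pair, and 85.9 and 79.3 in the 144 h pair, and no treated library reached the untreated range. Its fall at 144 h was −1.24 ± 0.31 (adjusted p = 0.0035). *Polr1e*, which encodes a peripheral Pol I subunit that acts in initiation and elongation, fell most of the 5 in that comparison (−1.42 ± 0.32, adjusted p = 0.002). *Polr1c* and *Polr1d* encode an assembly pair that Pol I shares with Pol III, and they fell by 0.91 and 1.26.

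The mRNA of the largest Pol II subunit, *Polr2a*, which carries the carboxy-terminal repeat domain, had the highest change of the 13 Pol II genes in each of the 5 comparisons of mTORi with 0 h. It read 348 and 308 spike-in scaled TPM in untreated wild-type libraries, 363 and 379 in the 24 h pair, 345 and 281 in the 72 h pair, and 225 and 189.8 in the 144 h pair. The 24 h libraries lay above those at 0 h, as they did for 12.1% of all genes. Those at 72 h overlapped those at 0 h, and those at 144 h lay below. The change at 24 h was 0.18 ± 0.27 (adjusted p = 0.708), which is at percentile 82.6 of all genes, and that at 144 h was −0.66 ± 0.27 (adjusted p = 0.0473). The latter call was lost when any 1 of the 8 wild-type or of the untreated DKO libraries was left out (adjusted p = 0.0545 to 0.249). Relative to its library total *Polr2a* rose at 24 h on the deposited TPM (0.55 ± 0.13, adjusted p = 0.0108) and was 0.36 at 144 h (adjusted p = 0.0675). *Polr2b*, the second largest subunit, read 257 and 259 in untreated wild-type libraries, 178 and 229.5 in the 24 h pair, 202 and 156 in the 72 h pair, and 137 and 117 in the 144 h pair. All 6 of these treated libraries lay below both untreated ones, and its fall at 144 h was −1.02 ± 0.28 (adjusted p = 0.00706), a call lost without replicate 2 at 0 h (adjusted p = 0.0504) or at 144 h (adjusted p = 0.0765). Its deposited TPM lay between 105 and 128 in the 8 wild-type libraries.

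The 6 lowest changes at 144 h on the spike-in scale were all of genes named for Pol II. *Polr2g*, a stalk subunit, read 191 and 187 spike-in scaled TPM in untreated wild-type libraries, 70.6 and 101 in the 24 h pair, 92.3 and 72.6 in the 72 h pair, and 58.6 and 52.0 in the 144 h pair. Its 144 h change, −1.76 ± 0.30 (adjusted p = 0.000283), was the lowest of the 28, at percentile 5.33 of all genes. *Polr2l*, a zinc-binding subunit that all 3 polymerases share, read 71.0 and 64.8 in untreated wild-type libraries, 22.1 and 21.8 in the 24 h pair, 34.7 and 24.9 in the 72 h pair, and 23.5 and 20.6 in the 144 h pair. It was at its lowest in the 24 h and 144 h groups, and no treated wild-type library reached the untreated ones. *Polr2i*, a subunit known for its part in transcript cleavage and fidelity, read 189.6 and 143 in untreated wild-type libraries, 61.7 and 73.7 in the 24 h pair, 99.2 and 49.7 in the 72 h pair, and 59.2 and 51.6 in the 144 h pair. At 144 h *Polr2l* and *Polr2i* fell by 1.58 and 1.56. *Polr2d*, the stalk partner of *Polr2g*, fell by 1.52 and *Polr2m*, which encodes a Pol II-associated factor also known as Gdown1, fell by 1.48. The remaining own Pol II genes, *Polr2c* and *Polr2j*, encode an assembly pair and fell by 1.25 and 1.27. The 5 subunits that all 3 polymerases contain, *Polr2e*, *Polr2f*, *Polr2h*, *Polr2k* and *Polr2l*, all fell at 144 h, with changes of −1.58 to −1.08 and a median of −1.32. The 21 members that belong to 1 polymerase had a median of −1.13.

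Of the Pol III genes, *Polr3a* encodes the largest subunit. It read 79.7 and 84.9 spike-in scaled TPM in untreated wild-type libraries, 64.7 and 77.9 in the 24 h pair, 69.5 and 53.6 in the 72 h pair, and 44.1 and 38.5 in the 144 h pair, with every treated wild-type library below the untreated ones. *Polr3b* read 101 and 96.7 in untreated wild-type libraries, 77.5 and 103 in the 24 h pair, 89.3 and 72.3 in the 72 h pair, and 64.9 and 58.8 in the 144 h pair, so that its 24 h libraries overlapped those at 0 h. *Polr3d* read 67.7 and 66.2 in untreated wild-type libraries, 60.8 and 78.6 in the 24 h pair, 67.1 and 53.9 in the 72 h pair, and 45.5 and 43.9 in the 144 h pair, overlapping the untreated range at 24 and 72 h and lying below it at 144 h. *Polr3a* fell by 0.98 at 144 h (adjusted p = 0.00766), a call lost without replicate 2 at 0 h (adjusted p = 0.0676) or at 144 h (adjusted p = 0.0833). *Polr3e* and *Polr3k*, which acts in RNA cleavage, fell by 0.77 and 1.13 in the same comparison, and each of these calls, like that of *Polr3f*, was lost without at least 1 library. *Polr3c* and *Polr3f*, which join the *Polr3g* or *Polr3gl* product in the initiation subcomplex of Pol III, fell by 1.21 and 1.09.

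*Polr3g* and *Polr3gl* are paralogues whose products take the same place in Pol III. The *Polr3g* form is known from stem cells and the *Polr3gl* form from differentiated tissues. Their mRNAs moved apart under mTORi. *Polr3g* (chromosome 13, mm10 81673843 to 81711013, minus strand) read 106 and 124 spike-in scaled TPM in untreated wild-type libraries, 38.5 and 51.0 in the 24 h pair, 68.1 and 54.7 in the 72 h pair, and 42.9 and 40.9 in the 144 h pair. *Polr3gl* (chromosome 3, mm10 96577872 to 96594181, minus strand) read 15.7 and 9.27 in untreated wild-type libraries, 16.5 and 15 in the 24 h pair, 35.9 and 23.0 in the 72 h pair, and 25.7 and 28.6 in the 144 h pair. *Polr3g* was below its untreated range at every treated time, and *Polr3gl* overlapped its untreated range at 24 h and lay above it at 72 and 144 h. Over all genes 12.9% lay above at 72 h and 3.61% at 144 h.

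*Polr3g* fell by 1.35 ± 0.29 at 24 h (adjusted p = 0.00639) and by 1.43 ± 0.29 at 144 h (adjusted p = 0.00102). The 24 h call was lost without replicate 2 at 0 h (adjusted p = 0.0937) and without replicate 1 at 24 h (adjusted p = 0.102), and it was kept on the deposited TPM (−0.97, adjusted p = 0.000143). *Polr3gl* rose by 1.10 ± 0.35 at 144 h (adjusted p = 0.0153), at percentile 99.7 of all genes, and by 2.01 ± 0.23 on the deposited TPM (adjusted p = 0.000377). On the spike-in scale this call was lost without replicate 2 at 0 h (0.75, adjusted p = 0.193), without replicate 1 at 144 h (adjusted p = 0.0569), without replicate 2 at 144 h (adjusted p = 0.1) and with no filter on low values (adjusted p = 0.0564). The untreated wild-type libraries of *Polr3gl*, at 7.44 and 4.39 deposited TPM, had the widest spread of the 28 members relative to their mean. A gene on the opposite strand, *Gm16253*, overlaps *Polr3gl*. The study's methods do not state whether strand was used in counting, and *Gm16253* itself stood between 0.753 and 1.97 deposited TPM in all libraries.

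The share of *Polr3g* in the sum of the pair needs no spike-in factor. It was 87.1% and 93.0% in untreated wild-type libraries, 70.1% and 77.2% in the 24 h pair, 65.5% and 70.4% in the 72 h pair, and 62.5% and 58.8% in the 144 h pair. In DKO it was 90.4% and 91.0% in untreated libraries, 78.7% and 77.4% in the 24 h pair, and 74.2% and 79.0% in the 72 h pair. No treated library of either genotype reached the untreated range of its genotype. For 2 libraries against 2 the smallest two-sided p of an exact permutation test is 0.333. No test of the share was run, over these pairs or over all 7 groups together, and the values are a description. The sum of the pair on the deposited TPM was 57.5 and 63.1 in untreated wild-type libraries, 38.4 and 35.6 in the 24 h pair, 62.9 and 52.1 in the 72 h pair, and 64.1 and 69.6 in the 144 h pair. On this scale it was lowest at 24 h, and at 144 h both libraries lay above both untreated ones. On the spike-in scale the order at 144 h was the opposite, with 68.6 and 69.6 against 121 and 133 in untreated libraries, and the 24 h pair was again lowest at 55.0 and 66.1. In DKO the deposited sum was 74.9 and 72.7 in untreated libraries, 42.9 and 43.6 in the 24 h pair, and 64.6 and 70.1 in the 72 h pair, with every treated library below the untreated ones.

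**Figure D3:**
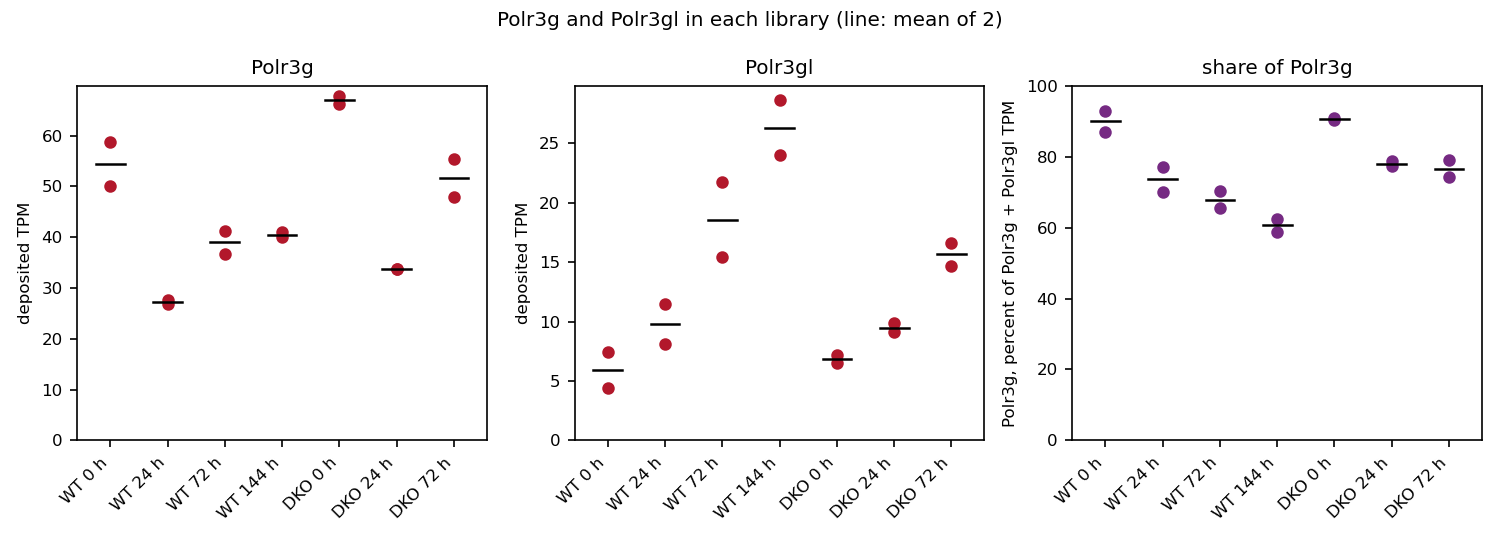
Deposited TPM of Polr3g and of Polr3gl, and the percent that Polr3g holds of their sum, are plotted for the 2 libraries of each of the 7 groups (points), with the group mean as a line. Polr3g is lowest at 24 h in both genotypes, Polr3gl is highest at 144 h in wild type, and the Polr3g share runs from a mean of 90.1% at 0 h to 60.7% at 144 h in wild type and to 76.6% at 72 h in DKO.

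The 250 bases upstream of the annotated start of each paralogue are shown because the pair diverged in mRNA level, and so that their promoter letters can be compared. Both are from RefSeq on GRCm38.p6, the build also called mm10, read 5′ to 3′ on the gene's strand. Capitals mark every match, on either strand, to CACGTG (the E-box core that MYC, USF and MiT/TFE factors read), CCGGAAG (an ETS-type core) and GGGCGG (a GC box). The windows are chr13:81711014-81711263 for *Polr3g* and chr3:96594182-96594431 for *Polr3gl*, both on the minus strand.
Polr3g: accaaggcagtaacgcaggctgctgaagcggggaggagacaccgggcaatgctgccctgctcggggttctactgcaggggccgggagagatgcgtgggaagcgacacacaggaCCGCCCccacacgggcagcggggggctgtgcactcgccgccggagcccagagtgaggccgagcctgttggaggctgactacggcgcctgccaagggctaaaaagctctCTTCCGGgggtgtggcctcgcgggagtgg
Polr3gl: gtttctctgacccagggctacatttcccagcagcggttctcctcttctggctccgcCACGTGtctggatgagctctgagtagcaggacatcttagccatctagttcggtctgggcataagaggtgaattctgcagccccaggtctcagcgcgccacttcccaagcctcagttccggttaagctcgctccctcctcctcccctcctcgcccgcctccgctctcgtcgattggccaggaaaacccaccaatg
The *Polr3g* window held 1 CCGGAAG match, 29 to 23 bases before the start, and 1 GGGCGG match, 137 to 132 bases before it, both on the opposite strand, and no CACGTG. The *Polr3gl* window held 1 CACGTG, 194 to 189 bases before the start, and neither of the others. The matches do not overlap each other. A RefSeq promoter was at hand for 22 of the 28 members. CACGTG was found upstream of 2 of these 22 (*Polr3c* and *Polr3gl*), CCGGAAG upstream of 5 (*Polr1c*, *Polr2f*, *Polr2j*, *Polr3b* and *Polr3g*) and GGGCGG upstream of 14. A gene was counted if any of its promoters held the letters. Counted the same way, 6.86% of all 27025 genes held CACGTG, 7.83% CCGGAAG and 35.4% GGGCGG, and of all 32851 promoters of this length 6.02%, 6.91% and 32.7% did. The motifs were picked after the expression values were known, and a match describes letters and not binding.

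The balance between the catalytic subunits of one enzyme was compared within each library, where no spike-in factor enters. The ratio of *Polr2a* to *Polr2b* TPM was 1.35 and 1.19 in untreated wild type, 2.04 and 1.65 in the 24 h pair, 1.71 and 1.80 in the 72 h pair, and 1.64 and 1.62 in the 144 h pair. In DKO it was 0.762 and 0.806 in untreated libraries, 1.41 and 1.71 in the 24 h pair, and 1.59 and 1.38 in the 72 h pair. Every treated library lay above the untreated range of its genotype, and the untreated DKO libraries lay below the untreated wild-type ones. The ratio of *Polr1a* to *Polr1b* likewise went from a mean of 0.681 in untreated wild type to 1.16 ± 0.0763 (SD, n = 2) after 24 h of mTORi and 0.917 ± 0.0378 after 144 h, and from 0.633 in untreated DKO to 1.06 at 24 h and 0.886 at 72 h. The ratio of *Polr3a* to *Polr3b* did not rise in this way. It was 0.791 and 0.878 in untreated wild type, 0.835 and 0.755 in the 24 h pair, which overlapped them, and 0.778 and 0.741 in the 72 h pair and 0.679 and 0.654 in the 144 h pair, which lay below. In DKO it was 0.897 and 0.794 in untreated libraries, 0.736 and 0.816 in the 24 h pair, which overlapped them, and 0.736 and 0.740 in the 72 h pair, which lay below. The longest annotated coding transcripts are 9216 and 3998 nt for *Polr1a* and *Polr1b*, and 6740 and 4145 nt for *Polr2a* and *Polr2b*. For *Polr3a* and *Polr3b* they are 4687 and 4975 nt. Changes also went with transcript length over all genes (below), and the part of length in these ratios was not tested.

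**Figure D4:**
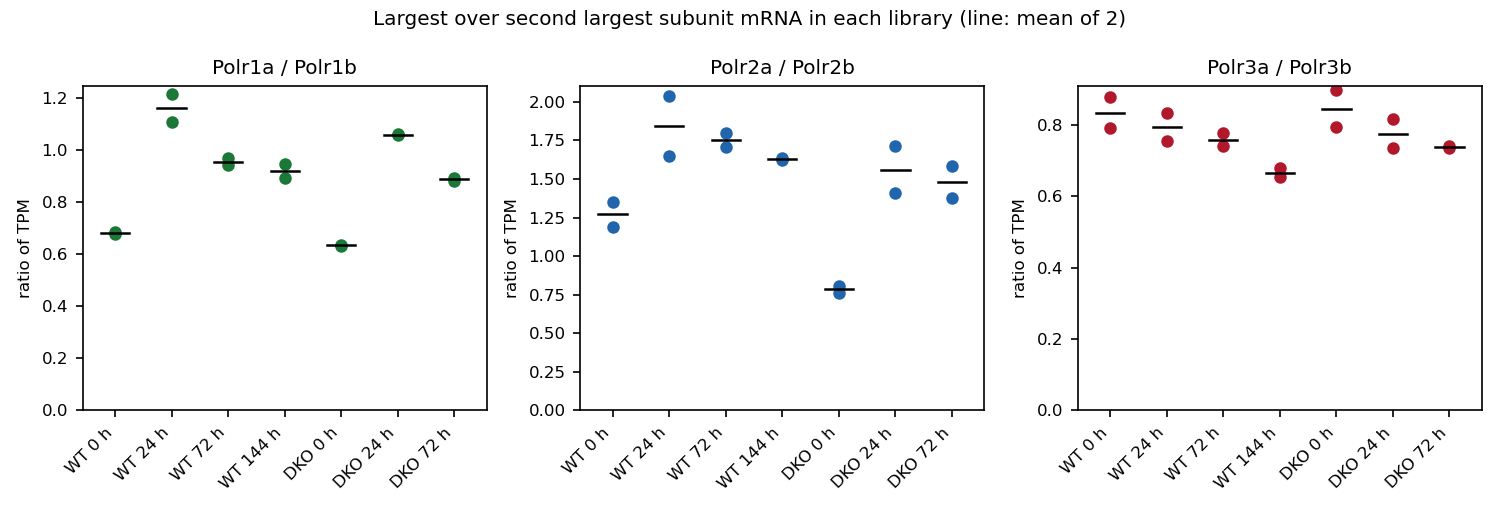
The ratio of the TPM of the largest to that of the second largest subunit is plotted for Pol I, Pol II and Pol III in the 2 libraries of each of the 7 groups (points), with the group mean as a line. Polr1a/Polr1b and Polr2a/Polr2b are higher in every treated library than in the untreated ones of the same genotype, and Polr3a/Polr3b is lowest in wild type at 144 h.

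Members with long transcripts had less negative changes than members with short ones. The longest coding transcript of each member in GENCODE vM21 ran from 601 nt (*Polr2k*) to 9216 nt (*Polr1a*). In wild type at 144 h the 10 members of at least 3000 nt had a median change of −1.0 and the 6 members under 1000 nt one of −1.39. At 24 h these medians were −0.44 and −1.08 in wild type, and −0.60 and −1.21 in DKO. The 6 members under 1000 nt are all named for Pol II, so length and polymerase cannot be told apart in that comparison. The longest annotated transcript need not be the one expressed. Spearman's rho between length and change across the 28 members was 0.55 at 144 h and 0.46 at 24 h in wild type, and 0.56 at 24 h in DKO. Across the 13219 tested genes with a coding transcript it was 0.20, 0.21 and 0.28 in the same comparisons. These are correlations across genes that share libraries, and genes are not independent replicates, so no p is given. Without *Polr3gl*, which rose and has a transcript of 1427 nt, rho was 0.62, 0.52 and 0.62 over 27 members. It was 0.55, 0.46 and 0.55 on the deposited TPM over all 28.

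**Figure D5:**
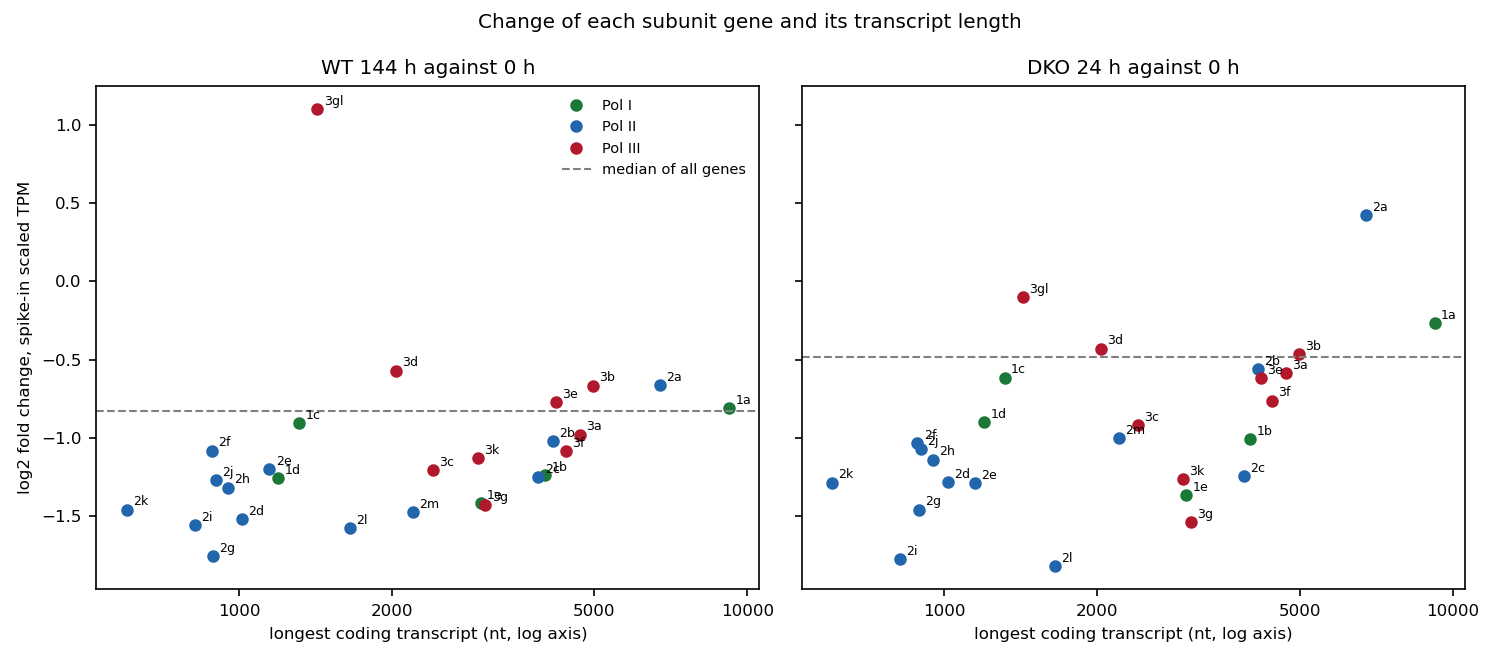
The log2 fold change on spike-in scaled TPM (vertical axis) of 27 members is plotted against the longest coding transcript in nt (horizontal axis, log scale), for wild type at 144 h (left) and DKO at 24 h (right) against 0 h, with the median of all genes as a dashed line and labels without the Polr prefix. The lowest points are 2g, 2l and 2i on the left and 2l, 2i and 3g on the right, 2a and 1a have the longest transcripts and lie above the dashed line, and 3gl stands above the others of its length.

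In *Tet1/2* DKO cells after 24 h of mTORi 17 of 28 members were called lower (60.7%) and 0 higher, against 18.7% and 0.505% of all genes. The median change was −1.0 against −0.49 over all genes. The 17 were *Polr1b*, *Polr1d* and *Polr1e*, 11 of the 13 Pol II genes (*Polr2a* and *Polr2b* were not among them), and *Polr3c*, *Polr3g* and *Polr3k*. With a replicate block within each genotype 23 were lower (82.1%) and 0 higher, against 38.1% and 1.95% of all genes, and those added included *Polr2b* (adjusted p = 0.049) and *Polr1c* (adjusted p = 0.0276). The deposited TPM gave 15 lower (53.6%) and 2 higher, against 13.3% and 11.6%. The count on the spike-in scale was 5 without replicate 1 at 0 h, and 10 without replicate 2 at 0 h or without replicate 2 at 24 h. Of all genes, 4.17%, 9.0% and 5.35% were then called lower. The calls of *Polr2e*, *Polr2g*, *Polr2i*, *Polr2l* and *Polr3g* were kept whichever library was left out, and the other 12 were lost without at least 1.

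*Polr2l* read 86.9 and 93.1 spike-in scaled TPM in untreated libraries, 26.8 and 22.8 in the 24 h pair, and 46.1 and 39.2 in the 72 h pair, and its 24 h change of −1.82 ± 0.28 (adjusted p = 0.000384) was the lowest of the 28. *Polr2i* read 192 and 248, then 69.3 and 57.1, then 111 and 100.1, and fell by 1.78 at 24 h (adjusted p = 0.000966). *Polr3g* read 191 and 157, then 75.5 and 45.7, then 121 and 95.6, and fell by 1.54 at 24 h (adjusted p = 0.00173). For these 3 genes the 24 h libraries lay below the 72 h ones, and both below the untreated ones. *Polr2g* read 276 and 230.2, then 120.3 and 68.7, then 146 and 114, with every treated library below the untreated ones and overlap between 24 and 72 h. *Polr3d* read 101 and 79.8, then 84.9 and 51.6, then 103 and 71.7, and overlapped its untreated range at both times.

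*Polr2a* read 269 and 254 spike-in scaled TPM in untreated libraries, 408 and 302 in the 24 h pair, and 507 and 318 in the 72 h pair. Every treated library lay above both untreated ones, as for 3.5% of all genes at 24 h and 15.7% at 72 h. The *Polr2a* changes, 0.42 ± 0.27 at 24 h (adjusted p = 0.276) and 0.62 ± 0.27 at 72 h (adjusted p = 0.209), passed no test on this scale without the replicate block, with which the 72 h value was called (adjusted p = 0.0451). *Polr2a* rose on the deposited TPM by 0.99 ± 0.13 at 24 h (adjusted p = 0.000703) and by 0.92 ± 0.13 at 72 h (adjusted p = 0.00139). *Polr1a* read 163 and 142, then 171 and 92.8, then 176 and 119.9, with overlap at both times, and its 24 h change was −0.27 ± 0.30 (adjusted p = 0.553). *Polr3gl* read 20.3 and 15.5, then 20.4 and 13.4, then 42.2 and 25.4. Its 24 h libraries overlapped the untreated ones and its 72 h libraries lay above them.

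Among the other large subunits in DKO, *Polr1b* read 257 and 225 in untreated libraries, 162 and 87.5 in the 24 h pair, and 197 and 136 in the 72 h pair. *Polr2b* read 352 and 316, then 290.3 and 176, then 319 and 231, with 1 library at 72 h inside the untreated range. *Polr3a* read 112 and 103, then 84.7 and 60.2, then 99.4 and 75.5, and *Polr3b* read 125 and 130.2, then 115 and 73.7, then 135 and 102. In the pairs of treated DKO libraries replicate 1 was the higher one for each of these genes, and its spike-in factors (2.24 at 24 h and 2.53 at 72 h) were above those of replicate 2 (1.36 and 1.73).

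At 72 h in DKO 1 member, *Polr2l*, was called lower (3.57%) and 0 higher, against 2.95% and 0.713% of all genes, with a median of −0.46 against −0.12. Of the 8 markers of other lineages *T* was called higher in the same comparison (1.25, adjusted p = 0.0431), 2 of the 8 were called higher on the deposited TPM, and their part in the result was not tested. The replicate block gave 9 lower (32.1%) and 2 higher (*Polr2a* and *Polr3gl*), against 13.2% and 5.34%, and the deposited TPM gave 8 lower (28.6%) and 3 higher, against 9.06% and 17.2%. The count was 0 without either 0 h or either 72 h library of DKO, without either 0 h, 72 h or 144 h library of wild type, and 8 without either DKO 24 h library. Over all genes the share called in either direction was between 0.505% and 2.93% in the former fits and 10.5% in the latter.

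No member was called between DKO and wild type at 0, 24 or 72 h, where 0.0439%, 0.0439% and 0.329% of all genes were called by limma. At an unadjusted p below 0.05 the counts were 1, 0 and 12 of 28, beside 8.35%, 4.14% and 23% of all genes. The members had median differences of 0.38, 0.11 and 0.60 at these times, beside 0.29, 0.10 and 0.49 over all genes. On the deposited TPM 0, 1 and 0 were called, the 1 being *Polr1c* at 24 h (−0.58, adjusted p = 0.0239), beside 0.598%, 1.37% and 4.01% of all genes. *Polr2a* in untreated cells stood at 95.4 and 107 deposited TPM in DKO and at 165 and 146 in wild type, without overlap, a difference of −0.61 ± 0.13 that did not pass the test (adjusted p = 0.0774). Over all genes 16.6% lay lower in untreated DKO without overlap on this scale. *Polr3g* differed by 0.59 ± 0.29 in untreated cells and by 0.81 ± 0.29 at 72 h on the spike-in scale (adjusted p = 0.596 and 0.167). These comparisons use the same 0 h libraries as the time courses.

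The response to mTORi was compared between the genotypes as a difference of changes. It was called for 0 of 28 members at 24 h and for 0 at 72 h, with 0.00548% and 0% of all genes called by limma, and 0 members at either time reached an unadjusted p below 0.05, beside 1.22% and 0.993% of all genes. The replicate block gave 0 calls at both times, beside 0.0932% and 0% of all genes, and the deposited TPM 0 calls, beside 0% and 0%. At an unadjusted p below 0.05 the block gave 0 and 1 members, beside 4.18% and 3.75% of all genes, and the deposited TPM 2 and 1, beside 3.87% and 3.71%. The difference for *Polr2a* at 72 h was 0.69 ± 0.38. These tests do not show that the responses were alike.

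Other genes of the transcription machinery were counted for wild type at 144 h on the spike-in scale, from lists compiled with earlier results of these data known, and are to be read against the 50.5% of all genes called lower there. Of the 4 subunits whose mouse symbols do not begin with Polr, all were called lower. *Crcp*, a Pol III subunit, fell most (−1.37), followed by *Znrd1*, a Pol I subunit (−1.31). Of 7 Pol I initiation genes 6 were lower, with *Ttf1* lowest (−1.42), and of 18 general initiation factors of Pol II 16 were lower, with *Gtf2f1*, a TFIIF subunit, at −1.82. Of 16 Pol III initiation and control genes 12 were lower, with *Gtf3c6*, a TFIIIC subunit, at −1.64. *Brf1*, a TFIIIB subunit, was highest at −0.26 ± 0.34 (adjusted p = 0.532). *Maf1*, the Pol III repressor, stood at −0.53 ± 0.29 (adjusted p = 0.128). *Brf1* and *Maf1* were singled out after their values were seen. Of 7 polymerase assembly and import genes 4 were lower, and of 3 genes of mitochondrial transcription all were. No gene of these lists was called higher. On the deposited TPM the lists gave, in the same order, 0 lower and 0 higher, 1 and 1, 7 and 0, 1 and 2, 3 and 2, and 0 and 0, against 11.7% of all genes called lower and 15.6% higher. The medians of these lists on the spike-in scale ran from −0.86 to −1.32, beside −0.83 over all genes and −1.21 over the 28 subunits.

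In the files' own mm10 coordinates 13 of the 28 overlap another annotated gene, mostly on the opposite strand, among them *Polr1e* with *Fbxo10*, *Polr2i* with *Tbcb* and *Polr2h* with *Clcn2*. Reads of such pairs cannot be told apart where counting ignored strand. Of the members whose values were given library by library, *Polr1b*, *Polr2a*, *Polr2g*, *Polr2l*, *Polr3a*, *Polr3d* and *Polr3g* overlap no other gene.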

How the data were processed

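Bulk RNA-seq of 14 libraries in 7 groups (2 each) was used. Per the labels, reads from ribosome-depleted libraries with ERCC spike-ins were trimmed with cutadapt 2.4, aligned to mm10 with STAR 2.7.3a and quantified with StringTie 2.0. The authors deposited TPM per gene, which sum to 1000000 in each library, so read depth cannot be read from these values. The study refers to an Extended Data figure for depth, which was not at hand. Entries of one identifier were summed (10 identifiers). Each library was multiplied by 1 factor, the median ratio of the study's spike-in normalized values to the deposited TPM over 482 to 539 genes of a supplementary table held only in part. An error in a factor would move all genes of that library together. The 18232 genes whose mean spike-in scaled TPM reached 1 were fitted over all 7 groups in limma 3.58.1 (R 4.3.3) on log2(TPM + 1), with Benjamini-Hochberg adjustment over all genes. The fit was tested on simulated data. Per the study's reporting summary, time points of one replicate were processed in parallel. Deviations of same-numbered libraries correlated at 0.222 to 0.341 within DKO and 0.0622 to 0.398 within wild type, and at −0.501 to 0.116 between the genotypes, so a block within genotype was tried. DKO against wild type at one time could not be tested with it. Alternatives were deposited TPM, another pseudocount, no filter, blocks and leaving out each library. Members and lists were chosen with earlier results of these data known. Values in every library were given for the 2 largest subunits of each polymerase, for *Polr3g* and *Polr3gl*, and for the 3 highest and 3 lowest members in wild type at 144 h and in DKO at 24 h, and up to 3 genes with the largest changes were named from each other list. The values of 1 member enter the counts and medians but are not reported here.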

Additional observations from a re-analysis of the deposited data

How the results depend on the processing

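The scale, the filter and the replicate block moved counts of called members by more than 1.5 times. The deposited TPM gave 17 calls in wild type at 24 h, 13 at 72 h and 9 at 144 h, 11 in DKO at 72 h, and 1 for DKO against wild type at 24 h. With no filter on low values 5 members were called in wild type at 24 h and 1 at 72 h, beside 2.73% and 1.87% of 38890 genes. The replicate block within each genotype gave 18 calls in wild type at 24 h, 17 at 72 h, and 11 in DKO at 72 h. The deposited TPM with that replicate block gave 20, 18 and 14 calls in wild type at 24, 72 and 144 h, and 12 in DKO at 72 h, beside 37.1%, 32.0%, 35.5% and 35.8% of all genes. Leaving out 1 library gave 1 to 16 calls in wild type at 24 h, 0 to 16 at 72 h and 16 to 28 at 144 h, while the share of all genes called ran from 1.96% to 19.8%, from 0.367% to 18.8% and from 21.6% to 60.4%. In DKO it gave 5 to 25 at 24 h and 0 to 8 at 72 h, beside 4.43% to 48.0% and 0.505% to 10.5% of all genes, and between the genotypes 0 calls in untreated cells, 0 at 24 h and 0 to 2 at 72 h, beside 0% to 0.269%, 0.0384% to 0.159% and 0% to 6.9% of all genes. The sign of the change differed on the deposited TPM in wild type at 144 h for *Polr1a* (0.21), *Polr1c* (0.12), *Polr2a* (0.36), *Polr2b* (0.000866), *Polr3a* (0.0305), *Polr3b* (0.35), *Polr3d* (0.44) and *Polr3e* (0.23). Of these *Polr3b* and *Polr3d* were called higher on that scale, and the others were not called. In DKO at 24 h the sign differed for *Polr1a* (0.29), *Polr2b* (0.00848), *Polr3b* (0.10), *Polr3gl* (0.41) and *Polr3d* (0.13). Some of these values are near 0. By construction that scale removes a change shared by all genes, and other causes were not tested. The lower pseudocount and the block across all libraries kept all 10 counts within 1.5 times. The length correlation on the deposited TPM and without *Polr3gl* was added after the data were seen. Depth was not at hand, and 2 libraries a group limit the precision.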
